A study of Mus musculus with 13 samples.

Results

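Expression of 32 genes of the complement system (components, receptors and regulators, chosen by gene symbol) was described in mandibular condylar cartilage, the tissue on the jaw side of the temporomandibular joint. Of the 32 genes 31 had a row in the table of 18748 genes, and 29 had enough counts to be tested among 14067 tested genes. The exceptions were C4a, with no row under that symbol, C8g, which encodes a chain of the membrane pore (at most 11 counts in any library), and Cfi, which encodes the protease that inactivates C3b (at most 1 count). RNA came from mice aged 2 months (young, 7 libraries) and 18 months (aged, 6 libraries). Strain, sex, genotype and treatment are not given in the labels used here, nor whether each library came from 1 mouse, so p-values measure the spread between these libraries, which may be technical.

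Complement is a cascade of proteins that tags microbes and dying cells for removal, calls in leukocytes and can open pores in membranes. It starts through C1q and its proteases (the classical pathway), through ficolins and other lectins with MASP proteases (the lectin pathway), or through factor B, factor D and properdin (the alternative pathway). The routes meet at C3, and soluble and membrane-bound regulators hold the cascade back. Cartilage matrix proteins can bind complement proteins, and joint cells make some of the components themselves.

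The proximal promoters of 7 genes are shown because they form chromosomal neighbours that moved alike or parted, or stand at the centre of the cascade. C1qb and C1qc are direct neighbours and did not pass the test for a difference with age, C1ra and C1s1 are direct neighbours and rose, C6 and C7 have 2 annotated genes between them and moved in opposite directions, and C3 is the component on which the pathways meet. Each sequence is the 250 bases before the annotated gene start in RefSeq, 5′ to 3′ on the gene's strand, with positions on GRCm38.p6, an earlier build than the GRCm39 of the submitters' processing notes. The positions are chr4:136886201-136886450 (minus strand) for C1qb, chr4:136892915-136893164 (minus strand) for C1qc, chr6:124512371-124512620 (plus strand) for C1ra, chr6:124542360-124542609 (minus strand) for the first listed start of C1s1, chr17:57228137-57228386 (minus strand) for C3, chr15:4726960-4727209 (plus strand) for C6 and chr15:5063774-5064023 (minus strand) for C7. Capitals mark letters that match a searched motif on either strand.
C1qb: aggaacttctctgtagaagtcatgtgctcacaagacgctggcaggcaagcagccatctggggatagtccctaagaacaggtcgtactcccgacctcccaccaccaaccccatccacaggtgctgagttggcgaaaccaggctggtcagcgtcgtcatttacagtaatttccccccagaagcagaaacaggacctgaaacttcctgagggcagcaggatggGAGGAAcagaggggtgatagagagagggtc
C1qc: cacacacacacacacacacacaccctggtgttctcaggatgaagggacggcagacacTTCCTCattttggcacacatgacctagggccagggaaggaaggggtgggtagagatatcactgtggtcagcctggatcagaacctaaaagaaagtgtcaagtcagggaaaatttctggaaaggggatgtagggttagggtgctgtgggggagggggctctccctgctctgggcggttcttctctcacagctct
C1ra: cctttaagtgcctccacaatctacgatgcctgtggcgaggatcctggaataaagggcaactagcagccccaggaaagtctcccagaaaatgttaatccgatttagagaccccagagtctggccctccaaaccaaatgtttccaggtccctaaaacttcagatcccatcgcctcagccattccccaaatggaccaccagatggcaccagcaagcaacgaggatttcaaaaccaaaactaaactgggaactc
C1s1: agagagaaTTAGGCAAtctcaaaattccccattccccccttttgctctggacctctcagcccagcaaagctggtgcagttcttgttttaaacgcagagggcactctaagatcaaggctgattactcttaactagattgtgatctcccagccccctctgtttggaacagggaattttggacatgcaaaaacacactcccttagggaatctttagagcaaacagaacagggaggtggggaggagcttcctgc
C3: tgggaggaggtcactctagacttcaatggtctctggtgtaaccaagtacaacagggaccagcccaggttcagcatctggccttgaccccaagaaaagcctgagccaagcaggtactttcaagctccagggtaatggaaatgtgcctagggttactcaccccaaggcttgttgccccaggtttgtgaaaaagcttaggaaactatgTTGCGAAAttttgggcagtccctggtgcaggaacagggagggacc
C6: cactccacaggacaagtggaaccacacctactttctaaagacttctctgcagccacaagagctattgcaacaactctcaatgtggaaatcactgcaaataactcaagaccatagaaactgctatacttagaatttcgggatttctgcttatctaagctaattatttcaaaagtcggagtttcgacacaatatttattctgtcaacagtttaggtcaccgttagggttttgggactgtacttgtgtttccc
C7: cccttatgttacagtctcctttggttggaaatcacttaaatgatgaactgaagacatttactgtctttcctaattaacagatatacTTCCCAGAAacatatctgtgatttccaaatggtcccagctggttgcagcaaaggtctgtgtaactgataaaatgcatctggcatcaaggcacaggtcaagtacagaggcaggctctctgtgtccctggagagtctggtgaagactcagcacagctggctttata

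The motifs were GAGGAA for PU.1, a lineage factor of myeloid cells, TTGCNNAA for C/EBP, factors of the acute phase response, TTCNNNGAA for the GAS element of STAT factors and GAAA, any 2 bases and GAAA for the ISRE of interferon responses. Matches on both strands were counted, also where motifs overlap. Of the 32 genes 22 had a promoter in the RefSeq table, in 26 entries, and C1qa, Masp1, C2, C4a, C4b, Cfb, Itgb2, Serping1, Cfi and Clu did not. The capitals are PU.1 letters in C1qb and C1qc, from 30 and 193 bases before the start, C/EBP letters in C1s1 and C3, from 242 and 45 bases before it, and GAS letters in C7, from 164 bases before it. C1ra and C6 held none of the 4 motifs in this window, and neither did the window of the other listed start of C1s1 (chr6:124542322-124542571). PU.1 letters occurred in 8 of the 26 complement promoters (30.8%) and in 23.3% of all 32851 promoters of this length, and C/EBP letters in 4 (15.4%) and 9.56%. GAS letters occurred in 1 complement promoter (3.85%) and 7.02% of all, and ISRE letters in 1, that of Cd59a, and 2.98% of all. A match describes letters and not a bound site.

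Depth was 17531694 to 18203443 expected counts per library in young and 16356839 to 17876681 in aged mice. The marker counts below stand beside 24.7% of all tested genes that were called higher in aged libraries and 21.6% called lower. The cartilage markers Col2a1, Acan and Sox9 were present at both ages, with log2 fold changes (aged over young) of −1.89, −0.056 and 0.11, and of 9 chondrocyte markers 6 fell and 1 rose. Markers of other cell types rose as well: all 10 erythroid markers (Slc4a1 3.87, Epb42 3.83), 9 of 12 neutrophil markers (Elane 1.71, Mpo 1.83, Prtn3 1.75), 10 of 12 skeletal muscle markers (Acta1 1.90, Ckm 2.41, and Myh4 not called at 1.57) and all 6 mast cell markers (Cpa3 2.13, Cma1 2.66, Mcpt4 2.17). The mast cell markers Cma1, Mcpt4, Tpsb2 and Ms4a2 held at most 6, 12, 12 and 18 counts in any young library. These genes had enough counts to be tested mainly through the aged libraries. Of 13 macrophage markers tested 7 rose (Adgre1 0.55) and 3 fell (Cd68 −0.43, Csf1r −0.46), and of 7 adipocyte markers 6 rose (Adipoq 0.71) and 1 fell, with Plin1 and Lep too low to test. Of 6 endothelial markers 1 rose and 2 fell (Pecam1, Cdh5 and Kdr were not called at −0.14, −0.34 and −0.11), of 5 B cell markers 1 fell (Cd79a and Ms4a1 were not called at −0.65 and −0.15), and of 7 fibroblast markers 1 rose and 1 fell (Pdgfra −0.67; Col3a1 and Dpt were not called at −0.44 and 0.15). The hepatocyte markers, among them Alb, Apoa1 and Ttr, had too few counts to test and summed to at most 1.00 CPM in any library.

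Most of the 29 genes of the list that could be tested were higher in aged cartilage. The list was chosen with earlier results of these data known. Of 14 further complement genes tested, 2 rose and 6 fell. In edgeR's quasi-likelihood test over all genes, at a Benjamini-Hochberg (BH) adjusted p under 0.05, 18 of 29 rose, 2 fell and 9 were not called. Of all tested genes 46.2% were called, 24.7% higher and 21.6% lower, against 69.0%, 62.1% and 6.90% of the complement genes. The median log2 fold change was 0.68 over the complement genes and 0.014 over all tested genes. The aged libraries lay wholly above the young ones for 9 complement genes and wholly below for 1, where 8.28% and 10.9% of all tested genes did so. Genes that were low in young libraries, such as C7 and Vsig4, passed the filter on low counts mainly through the aged ones. In bulk tissue, fewer cells of a type and less RNA per cell cannot be told apart.

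**Figure D1:**
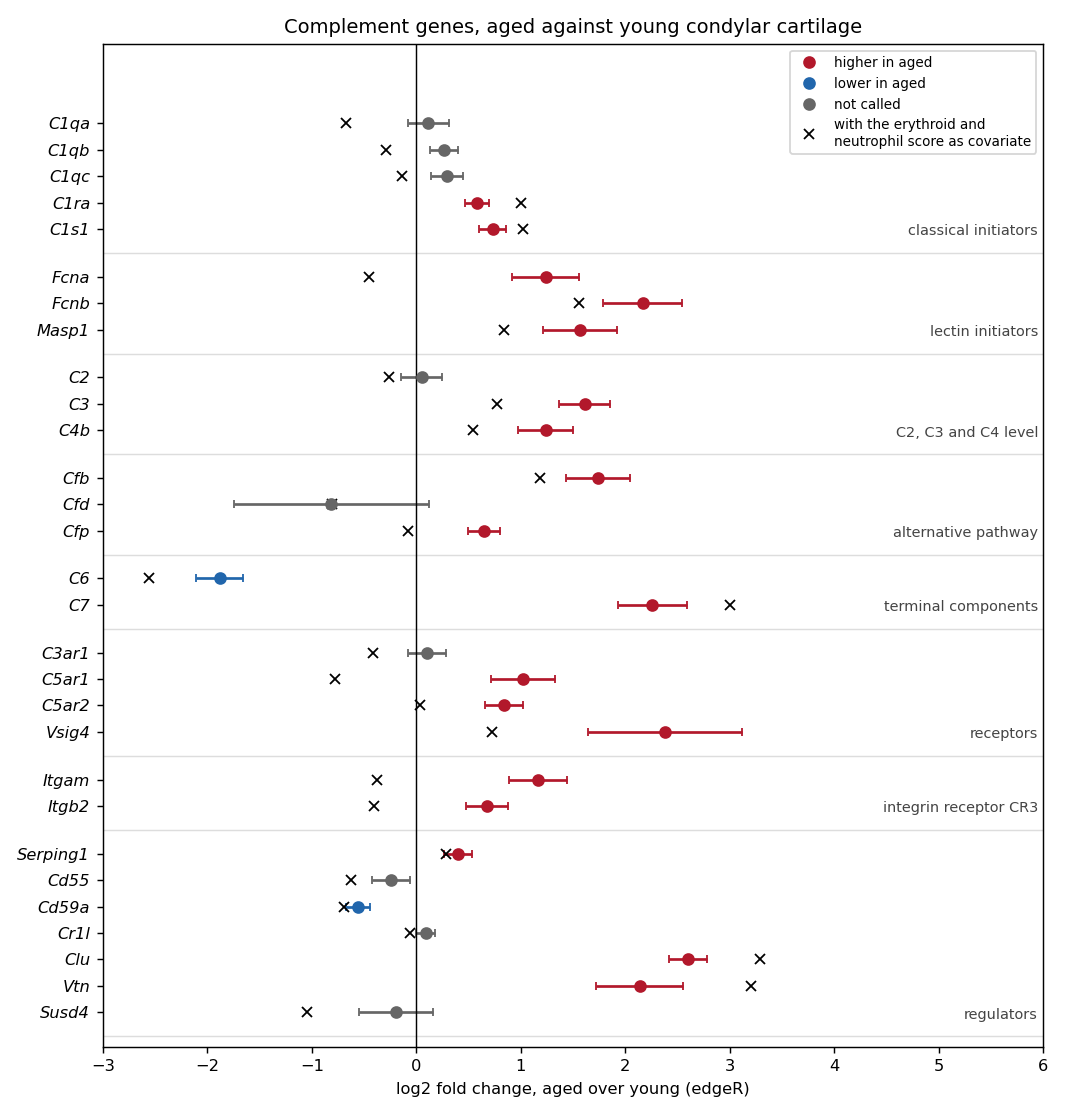
Log2 fold change (aged over young, edgeR) of the 29 tested complement genes with its standard error, by role; red circles were called higher, blue lower and grey not called, and crosses give the value with an erythroid and neutrophil marker score as a covariate. Clu, C7, Vtn, C1ra and C1s1 lie right of 0 and C6 and Cd59a left of it, and were called, by both estimates. Fcnb, Masp1, C3, C4b, Cfb, Serping1, Vsig4 and C5ar2 also lie right of 0 by both, but were not called by the second. Of the genes called higher, Fcna, Cfp, C5ar1, Itgam and Itgb2 are right of 0 by the first and left of it by the second.

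Many of these calls were lost when a marker score entered the fit. Summed neutrophil markers ran from 589 to 1864 CPM in young and 1195 to 5815 CPM in aged libraries, erythroid markers from 58.7 to 252 CPM in young and 469 to 1836 CPM in aged libraries, and macrophage markers from 809.9 to 1036 CPM in young and 814 to 1719.9 CPM in aged libraries. With the mean log2 CPM of erythroid and neutrophil markers as a covariate, 5 of the 18 genes stayed higher (C1ra, C1s1, C7, Clu and Vtn), C6 and Cd59a stayed lower, and the share of all genes called dropped to 21.7%. With the macrophage score 10 stayed higher (C1ra, C1s1, Fcnb, C3, C4b, Cfb, C7, C5ar2, Clu and Vtn), and 34.9% of all genes were called. With the skeletal muscle score, whose markers summed to 595 to 4738 CPM in young and 3583 to 15043 CPM in aged libraries, 15 stayed higher and C1ra, C1s1, Vtn and the fall of Cd59a were no longer called, and 27.9% of all genes were called. Erythroid sums did not overlap between the ages, so in these libraries that score and age cannot be told apart. The part of macrophages and muscle in the results was not tested.

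The recognition chains of the classical pathway were not called. C1qa, C1qb and C1qc encode the chains of C1q, which binds antibody complexes and cell debris and is made mainly by macrophages. C1qa spanned 35.7 to 53.1 CPM in young (median 42.3) and 28.5 to 76.4 CPM in aged libraries (median 44.3). C1qb spanned 40.5 to 53.4 CPM in young (median 42.8) and 37.6 to 70.2 CPM in aged libraries (median 53.1). C1qc spanned 43.2 to 54.6 CPM in young (median 49.0) and 40.4 to 92.5 CPM in aged libraries (median 57.8). For each chain the aged libraries reached below and above the young range, with aged replicate 6 the highest. The log2 fold changes were 0.12 ± 0.19, 0.27 ± 0.13 and 0.29 ± 0.15 (SE; edgeR BH-adjusted p = 0.651, 0.120 and 0.135). C1qb and C1qc were called with library sizes alone (0.50 and 0.53, edgeR BH-adjusted p = 0.0100 and 0.0136), a scaling that put the median of all genes at 0.24. C1qb was called as well with limma on log2(FPKM + 1) and log2(FPKM + 0.1), which put the median of all genes at 0.17 and 0.21. Both genes were also called with the skeletal muscle score (0.51 and 0.61, edgeR BH-adjusted p = 0.0427 and 0.0275), C1qb without aged replicate 3 and C1qc without aged replicate 4.

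Within each age the mean log2 CPM of the C1q chains was compared with the macrophage markers. In aged libraries the measures had r = 0.85 (n = 6, exact permutation p = 0.0222, adjusted 0.0756, Spearman rho = 0.71, exact permutation p = 0.136, adjusted 0.408), and r = 0.23 without the 2 libraries farthest from the median of the list. In young libraries they had r = 0.55 (n = 7, exact permutation p = 0.221, adjusted 0.442, Spearman rho = 0.39, exact permutation p = 0.396, adjusted 0.791), and r = 0.97 without the 2 libraries farthest from the median of the list. The aged r thus depended on 2 libraries at this scaling, although with library sizes alone it was 0.91 and 0.96 without the 2 farthest. On log2(TPM + 0.1) the aged r was 0.77, and 0.95 without the 2 farthest. Each aged r without the 2 farthest comes from only 4 libraries. None of the 6 relations computed passed after adjustment.

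The proteases of the C1 complex rose. C1ra encodes C1r, which activates C1s, and spanned 27.6 to 35.5 CPM in young (median 34.2) and 38.1 to 64.2 CPM in aged libraries (median 47.6), with no overlap. C1s1 encodes C1s, which cleaves C4 and C2, and spanned 25.2 to 36.7 CPM in young (median 34.4) and 36.5 to 64.7 CPM in aged libraries (median 58.4). Only the lowest aged library of C1s1, replicate 1 at 36.5 CPM, lay within the young range. The log2 fold changes were 0.58 ± 0.11 and 0.73 ± 0.13 (SE; edgeR BH-adjusted p = 0.000933 and 0.000436). In the fit that held the erythroid and neutrophil score they were 1.00 and 1.02 and called, and with the skeletal muscle score 0.44 and 0.48 and not called (edgeR BH-adjusted p = 0.0710 and 0.0582). The close relatives C1rb and C1s2 held at most 2 and 8 counts in any library.

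All 3 listed initiators of the lectin pathway rose, where 24.7% of all tested genes did so. Outside the list, the lectin pathway genes Masp2 and Colec11 were not called (log2 fold changes 0.063 and −0.091, edgeR BH-adjusted p = 0.866 and 0.808). Mbl1, Mbl2 and Colec10 had too few counts to test. Fcnb encodes a ficolin of myeloid cells, a sugar-binding protein that recruits MASP proteases, and spanned 2.75 to 14.4 CPM in young (median 9.16) and 18.5 to 61.2 CPM in aged libraries (median 38.7). Every aged library was above every young one, and the log2 fold change was 2.17 ± 0.38 (SE; edgeR BH-adjusted p = 0.000452). Fcna, the ficolin of macrophages and plasma, spanned 3.25 to 5.02 CPM in young (median 4.05) and 3.56 to 18.2 CPM in aged libraries (median 9.60). Aged replicates 3 and 2 lay within the young range, and the log2 fold change was 1.24 ± 0.32 (SE; edgeR BH-adjusted p = 0.00665). Masp1, which encodes a protease that binds ficolins and mannose-binding lectin, spanned 5.08 to 8.13 CPM in young (median 6.78) and 9.50 to 53.5 CPM in aged libraries (median 14.3). Its ages did not overlap, but the top value was aged replicate 6 and the next aged library stood at 14.7 CPM. Masp1 rose by 1.56 ± 0.36 on the log2 scale (SE; edgeR BH-adjusted p = 0.00289), and by 0.96 without that library (edgeR BH-adjusted p = 8.84e-05). None of the 3 was called once the erythroid and neutrophil score was in the fit, at 1.56 for Fcnb, −0.45 for Fcna and 0.84 for Masp1 (edgeR BH-adjusted p = 0.106, 0.562 and 0.432).

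Fcnb was compared with the neutrophil markers inside each age. In young libraries it had r = 0.82 (n = 7, exact permutation p = 0.0252, adjusted 0.0756, Spearman rho = 0.68, exact permutation p = 0.110, adjusted 0.408), and r = 0.67 without the 2 libraries farthest from the median of the list. In aged libraries it had r = 0.18 (n = 6, exact permutation p = 0.721, adjusted 0.721, Spearman rho = 0.20, exact permutation p = 0.714, adjusted 1.00), and r = 0.52 without the 2 libraries farthest from the median of the list. Aged replicate 3 had the lowest neutrophil score of the aged libraries (4.92, mean log2 CPM) and a middling Fcnb level of 38.7 CPM.

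**Figure D2:**
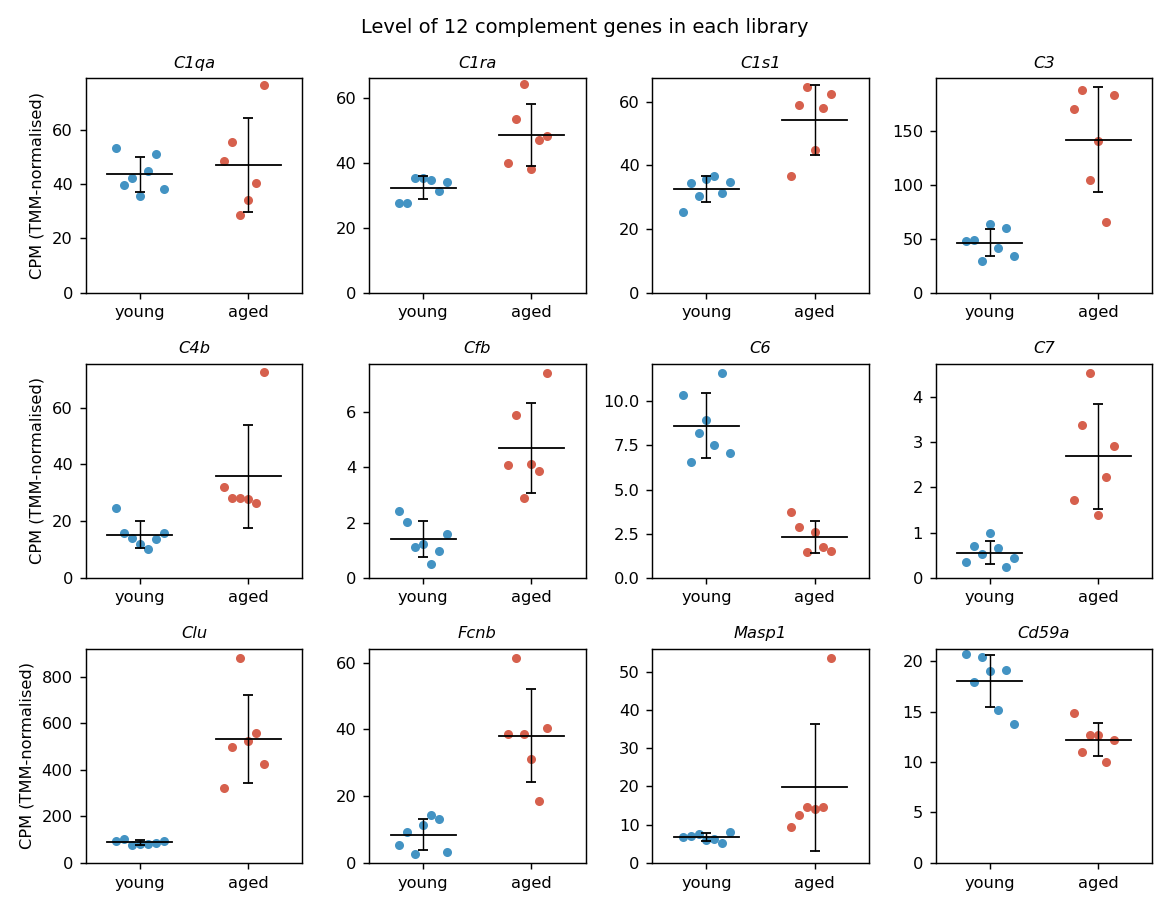
TMM-normalised CPM of 12 complement genes in each young (7) and aged (6) library, 1 panel per gene, with the mean as a line and the SD as a bar. C3, Cfb, C7 and Clu are higher in every aged library and C6 is lower in every one, while C1qa overlaps between the ages.

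C3, on which the pathways meet, rose, as did C4b, and C2 was not called. C3, whose fragments tag surfaces and attract leukocytes, spanned 29.2 to 63.4 CPM in young (median 47.5) and 65.4 to 188 CPM in aged libraries (median 155). The lowest aged library, replicate 5, sat just above the highest young one, and C3 rose by 1.61 ± 0.24 on the log2 scale (SE; edgeR BH-adjusted p = 0.000148). C4b, a C4 gene whose product joins C2 in the C3 convertase, spanned 10.1 to 24.8 CPM in young (median 14.1) and 26.2 to 72.5 CPM in aged libraries (median 28.2). Its ages did not overlap. Aged replicates 1 to 5 lay close together and replicate 6 stood apart, and the rise of 1.24 ± 0.26 (SE; edgeR BH-adjusted p = 0.00174) was 0.90 without it (edgeR BH-adjusted p = 0.00102). RefSeq lists the near-identical C4a as a transcribed pseudogene, and how shared reads were counted was not given in the sources used here, so the level of C4b is uncertain. C2 spanned 3.03 to 4.45 CPM in young (median 3.67) and 2.46 to 6.64 CPM in aged libraries (median 3.41), with a log2 fold change of 0.051 ± 0.20 (SE; edgeR BH-adjusted p = 0.854). Under the erythroid and neutrophil score C3 stood at 0.77 and C4b at 0.54, neither called (edgeR BH-adjusted p = 0.195 and 0.463).

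In the alternative pathway Cfb and Cfp rose. Cfb encodes factor B, the protease subunit of the amplifying convertase, and spanned 0.482 to 2.44 CPM in young (median 1.22) and 2.89 to 7.41 CPM in aged libraries (median 4.09), with no overlap. It rose by 1.74 ± 0.31 on the log2 scale (SE; edgeR BH-adjusted p = 0.000451), while C2, which lies beside it with 1 non-coding gene between them, was not called. Under the erythroid and neutrophil score Cfb stood at 1.19 (edgeR BH-adjusted p = 0.178). Cfp encodes properdin, which stabilises that convertase and is made by myeloid cells, and spanned 16.1 to 22.7 CPM in young (median 17.7) and 19.2 to 38.7 CPM in aged libraries (median 29.4). Aged replicates 3 and 5 lay within the young range. Cfp rose by 0.65 ± 0.15 (SE; edgeR BH-adjusted p = 0.00315) and stood at −0.083 with that score (edgeR BH-adjusted p = 0.823).

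Cfd encodes factor D, or adipsin, which fat cells make in quantity and which cleaves factor B. It varied widely among libraries of the same age and spanned 0.0602 to 8.99 CPM in young (median 0.877) and 0.391 to 4.96 CPM in aged libraries (median 0.862). Young replicates 1, 7 and 2 held 8.99, 6.97 and 3.73 CPM and every other young library under 1 CPM. The log2 fold change of −0.81 ± 0.93 (SE) did not pass the test (edgeR BH-adjusted p = 0.501). It was −1.53 without aged replicate 6 and −0.23 without young replicate 1, neither called, and some other settings turned its sign. With the adipocyte markers Cfd had r = 0.21 (n = 7, exact permutation p = 0.652, adjusted 0.721, Spearman rho = 0.071, exact permutation p = 0.906, adjusted 1.00), and r = 0.055 without the 2 libraries farthest from the median of the list in young libraries. In aged libraries it had r = −0.16 (n = 6, exact permutation p = 0.713, adjusted 0.721, Spearman rho = 0.029, exact permutation p = 1.00, adjusted 1.00), and r = −0.38 without the 2 libraries farthest from the median of the list.

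The terminal components C6 and C7, which join the growing pore complex in sequence, moved in opposite directions. C6 spanned 6.57 to 11.6 CPM in young (median 8.19) and 1.47 to 3.74 CPM in aged libraries (median 2.17), and fell by 1.88 ± 0.23 on the log2 scale (SE; edgeR BH-adjusted p = 1.88e-05). C7 spanned 0.245 to 0.991 CPM in young (median 0.526) and 1.39 to 4.53 CPM in aged libraries (median 2.57), and rose by 2.26 ± 0.33 (SE; edgeR BH-adjusted p = 0.000101). Neither gene overlapped between the ages. Counts were low, at 4 to 17 for C7 in young and 26 to 76 for C6 in aged libraries. Both stayed called with the erythroid and neutrophil score (−2.56 and 3.01, edgeR BH-adjusted p = 0.00206 and 0.00230) and with the skeletal muscle score (−1.62 and 1.64, edgeR BH-adjusted p = 0.00177 and 0.00910). Per gene length, the mean level was 3.21 FPKM for C6 and 0.191 FPKM for C7 in young libraries, and 1.00 and 1.07 FPKM in aged ones. C6 was the more abundant in young cartilage, and in aged cartilage their ranges overlapped.

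**Figure D3:**
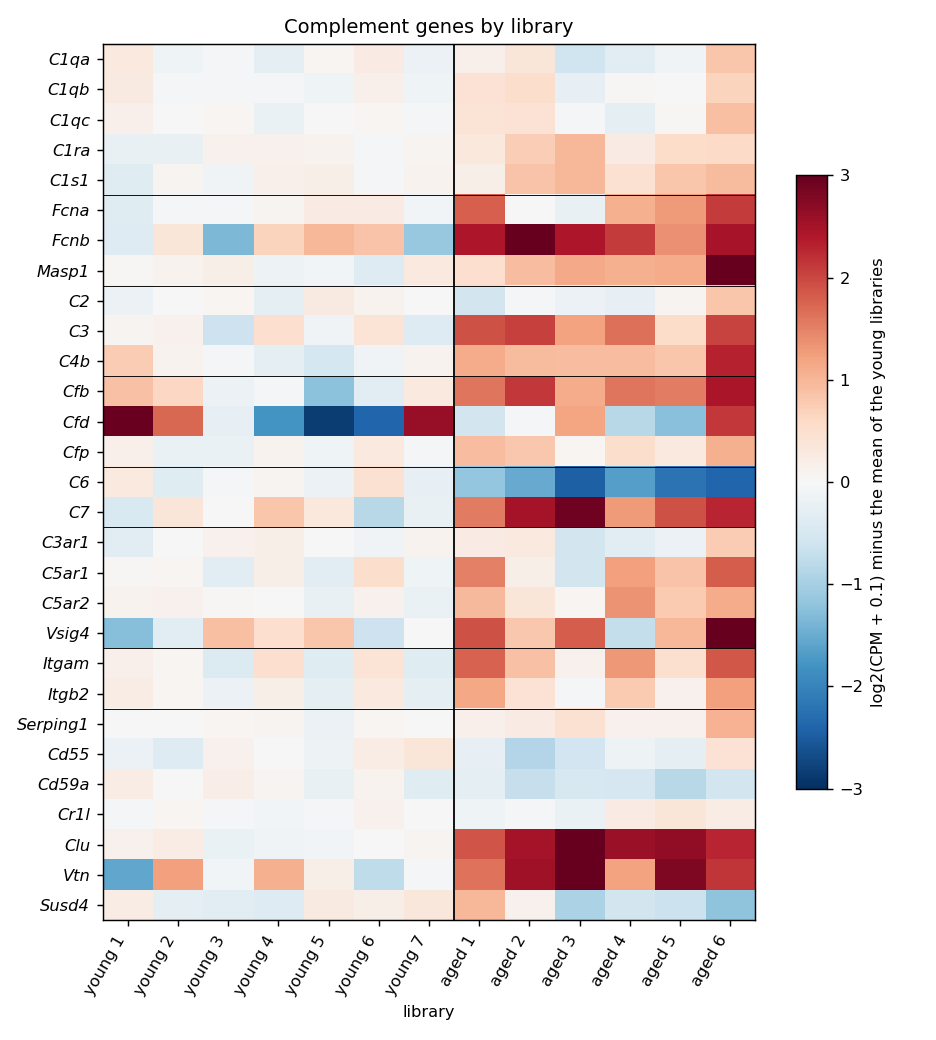
Log2(CPM + 0.1) of the 29 tested complement genes in each of the 13 libraries, minus the mean of the young libraries, with colours limited to 3 on either side of 0 and lines between the roles. Clu, C3, Cfb and C7 are red in all 6 aged libraries and C6 is blue in all 6, and Cfd varies among the young libraries.

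Among receptors for complement fragments 3 of 4 rose, where 24.7% of all tested genes did so, and the call of Vsig4 depended on the setting. C5ar1, the leukocyte receptor for the attractant C5a, spanned 7.40 to 13.7 CPM in young (median 9.68) and 6.45 to 33.4 CPM in aged libraries (median 19.7), and rose by 1.02 ± 0.31 on the log2 scale (SE; edgeR BH-adjusted p = 0.0148). Aged replicate 3 lay below the young range and replicate 2 within it, and limma-voom did not call the gene (adjusted p = 0.0576). C5ar2, a further C5a receptor that lies beside C5ar1, spanned 4.27 to 5.45 CPM in young (median 5.09) and 5.15 to 12.8 CPM in aged libraries (median 9.25). Only aged replicate 3 lay within the young range, and C5ar2 rose by 0.84 ± 0.18 (SE; edgeR BH-adjusted p = 0.00174). Vsig4, a macrophage receptor for C3 fragments, spanned 0.116 to 0.877 CPM in young (median 0.428) and 0.222 to 9.96 CPM in aged libraries (median 1.35). Its rise of 2.38 ± 0.74 (SE; edgeR BH-adjusted p = 0.0172) was 1.17 and not called without aged replicate 6 (edgeR BH-adjusted p = 0.0713), and 1.69 and not called with a replicate block (edgeR BH-adjusted p = 0.126). Vsig4 was not called either by limma-voom (1.67, adjusted p = 0.101) or by limma on log2(FPKM + 1) and log2(TPM + 0.1). Aged replicate 6 also had the highest macrophage score, 4.87 against at most 4.55 in the other aged libraries (mean log2 CPM). Its neutrophil and fibroblast scores, 7.77 and 7.73, were the highest of the aged libraries too, and a relation of these scores to Vsig4 was not tested. C3ar1, the receptor for C3a, spanned 5.68 to 8.16 CPM in young (median 7.22) and 4.87 to 12.2 CPM in aged libraries (median 7.42), and its log2 fold change of 0.10 ± 0.18 (SE) did not pass the test (edgeR BH-adjusted p = 0.677). None of the 4 was called under the erythroid and neutrophil score, at −0.78 for C5ar1, 0.035 for C5ar2, 0.73 for Vsig4 and −0.41 for C3ar1.

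Both chains of complement receptor 3, the integrin through which neutrophils and macrophages take up coated particles, rose. Itgam, the alpha chain, spanned 36.0 to 68.0 CPM in young (median 50.4) and 52.7 to 174 CPM in aged libraries (median 104), and rose by 1.16 ± 0.27 on the log2 scale (SE; edgeR BH-adjusted p = 0.00354). Itgb2, the beta chain shared by leukocyte integrins, spanned 62.7 to 94.8 CPM in young (median 81.1) and 75.1 to 183 CPM in aged libraries (median 119), and rose by 0.68 ± 0.20 (SE; edgeR BH-adjusted p = 0.0141). For both chains aged replicates 6 and 1 were the highest, and replicates 3 and 5 lay within the young range. Replicates 6 and 1 also had the highest neutrophil scores of the aged libraries (7.77 and 7.57, mean log2 CPM). Their erythroid scores were the highest as well (6.78 and 6.78), and a relation of either score to these chains was not tested. Itgam stood at −0.38 under the erythroid and neutrophil score and Itgb2 at −0.40, neither called (edgeR BH-adjusted p = 0.477 and 0.304).

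Of 7 regulators tested 3 rose, 1 fell and 3 were not called, where 24.7% of all tested genes rose and 21.6% fell. The median log2 fold change of the 7 was 0.088. Clu encodes clusterin, a secreted chaperone that blocks insertion of the pore complex, and had the largest log2 fold change and the smallest adjusted p of the complement genes. It spanned 75.5 to 101 CPM in young (median 86.5) and 323 to 879 CPM in aged libraries (median 509). Every aged library was far above every young one, and Clu rose by 2.60 ± 0.18 on the log2 scale (SE; edgeR BH-adjusted p = 3.09e-07). Under 13 other settings the value was 2.16 to 3.29 and called in each. Vtn encodes vitronectin, an adhesion protein of matrix and plasma that also blocks the pore, and spanned 0.522 to 4.17 CPM in young (median 1.65) and 4.16 to 14.4 CPM in aged libraries (median 9.27). The lowest aged library, replicate 4, fell just inside the young range set by young replicate 2. Vtn rose by 2.14 ± 0.41 (SE; edgeR BH-adjusted p = 0.000936), and stood at 3.20 with the erythroid and neutrophil score (edgeR BH-adjusted p = 0.00690) and at 1.09 with the skeletal muscle score, where it did not pass the test (edgeR BH-adjusted p = 0.0555).

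Serping1 encodes the C1 inhibitor, which removes C1r and C1s from the complex, and spanned 65.7 to 78.7 CPM in young (median 74.1) and 80.7 to 153 CPM in aged libraries (median 85.4). The ages did not overlap, by a narrow margin, and the rise of 0.40 ± 0.13 (SE; edgeR BH-adjusted p = 0.0253) was 0.22 without aged replicate 6 (edgeR BH-adjusted p = 0.0191). Under the erythroid and neutrophil score it was 0.28 and not called (edgeR BH-adjusted p = 0.475). Cd59a, which encodes a membrane protein that stops pore formation on host cells, spanned 13.8 to 20.7 CPM in young (median 19.0) and 10.05 to 14.9 CPM in aged libraries (median 12.4). Only young replicate 7 and aged replicate 1 kept the ages from separating. Its relative Cd59b, with which it can share reads, held at most 24 counts in any library. Cd59a fell by 0.56 ± 0.11 on the log2 scale (SE; edgeR BH-adjusted p = 0.00108), and with the skeletal muscle score stood at −0.44 (edgeR BH-adjusted p = 0.0553).

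Cd55, Cr1l and Susd4 were not called. Cd55, which speeds the decay of convertases, spanned 23.8 to 40.1 CPM in young (median 31.8) and 17.1 to 42.5 CPM in aged libraries (median 26.0), with a log2 fold change of −0.25 ± 0.18 (SE; edgeR BH-adjusted p = 0.287). Without aged replicate 6 it was −0.43 and called lower (edgeR BH-adjusted p = 0.0268). Cr1l, or Crry, a membrane regulator of C3 in mice, spanned 36.4 to 42.0 CPM in young (median 37.8) and 33.6 to 49.5 CPM in aged libraries (median 41.1), with a log2 fold change of 0.088 ± 0.087 (SE; edgeR BH-adjusted p = 0.431). It was called with library sizes alone (0.32, edgeR BH-adjusted p = 0.00370) and with limma on log2(FPKM + 1) and log2(FPKM + 0.1). Those settings put the median of all genes at 0.24, 0.17 and 0.21. Susd4, a membrane inhibitor of convertases, spanned 0.875 to 1.53 CPM in young (median 1.35) and 0.460 to 2.46 CPM in aged libraries (median 0.751), with a log2 fold change of −0.19 ± 0.35 (SE; edgeR BH-adjusted p = 0.680).

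The aged libraries differed among themselves in which complement genes were high, a comparison chosen after the values were seen. In aged replicate 3 Clu (879 CPM), C1ra (64.2 CPM), C1s1 (64.7 CPM), C7 (4.53 CPM) and Vtn (14.4 CPM) were the highest of the 6. In the same library Itgam, Itgb2, C5ar1, C5ar2, Cfp and Fcna were the lowest of the 6, and so was the neutrophil score. Aged replicate 6 was the highest of the 6 for Itgam, Itgb2, C5ar1, Cfp, Fcna, Cfb and the C1q chains, and held 423 CPM of Clu. The contrast was not complete, as aged replicate 6 also held 62.4 CPM of C1s1 and 48.3 CPM of C1ra. Fcnb was alike in aged replicates 3 and 6, at 38.7 and 40.4 CPM.

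Per gene length the order of the genes shifted with age. On log2(FPKM + 1) and log2(FPKM + 0.1) the median log2 fold change of all genes was 0.17 and 0.21. Differences in FPKM between the ages include that shift. In young cartilage C1qc led with 63.4 ± 5.53 FPKM (SD, n = 7), and Clu, C1qa, C1qb and Serping1 followed at 55.0, 54.1, 53.8 and 46.3 FPKM. The ranges of the first 4 overlapped. In aged cartilage Clu stood at 380.0 ± 119 FPKM (SD, n = 6), and its range of 253 to 599 FPKM lay above that of every other tested gene among the 29. C1qc, C1qb, Serping1 and C1qa followed at 87.6, 73.2, 69.9 and 66.2 FPKM, with overlapping ranges. Fcnb went from a mean of 10.3 to 52.2 FPKM and C3 from 10.9 to 37.2 FPKM. The lowest means in young cartilage were those of C7, Susd4, Vsig4 and Cfb, at 0.191, 0.417, 0.419 and 0.541 FPKM.

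**Figure D4:**
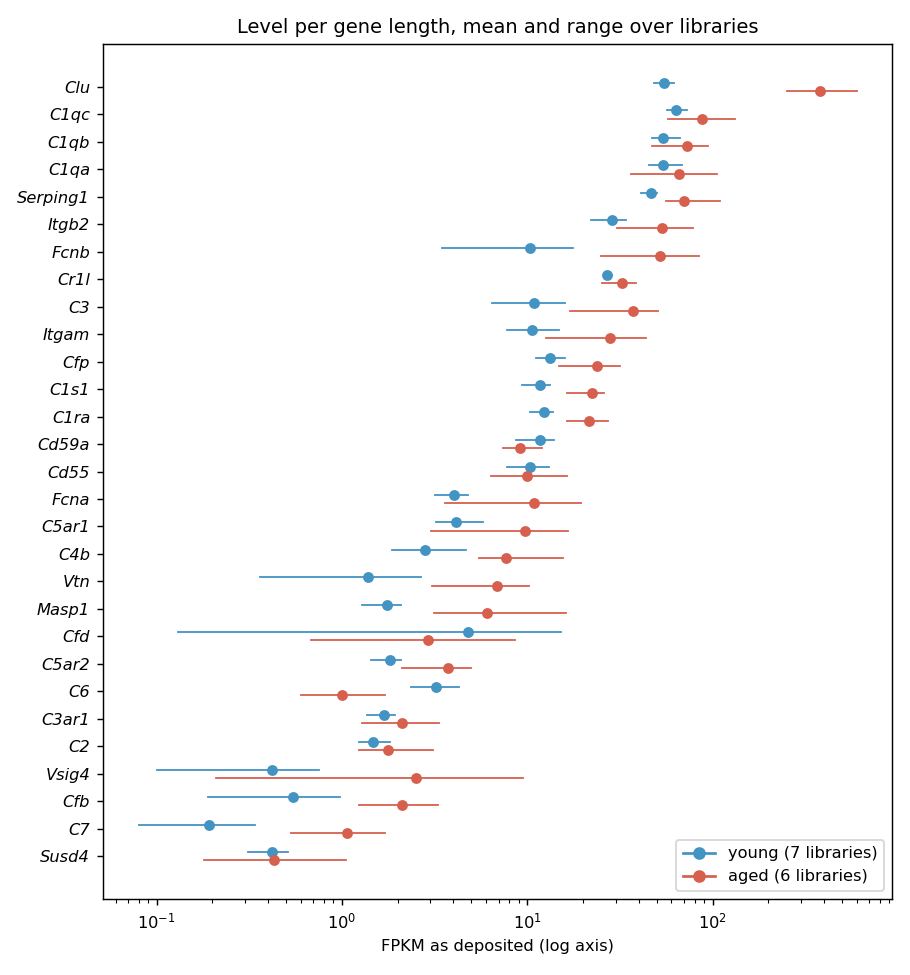
Mean (points) and range (lines) of deposited FPKM on a log axis for the 29 tested complement genes in young (7) and aged (6) libraries. Clu is the highest in aged cartilage with a mean of 380.0 FPKM, and C7 is at 0.191 FPKM in young and 1.07 FPKM in aged cartilage.

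Of 34 further complement genes listed by name 31 had a row and 14 could be tested, of which 2 rose, 6 fell and 6 were not called, beside 24.7% of all tested genes that rose and 21.6% that fell. Their median log2 fold change was −0.18. The split moved with the scaling, to 4 higher and 4 lower with library sizes alone, and to 3 and 4 with limma on log2(FPKM + 1). Among those that fell, Csmd1, a membrane inhibitor, fell by 0.88, Cd93, a surface protein of endothelial and myeloid cells, by 0.43, Itgax, the alpha chain of complement receptor 4, by 0.41, and Colec12, a scavenger collectin, by 0.25 (edgeR BH-adjusted p = 0.000306, 0.000328, 0.0287 and 0.00853). The fall of Itgax was lost without young replicate 1, young replicate 6, aged replicate 3 or aged replicate 5, and with library sizes alone it was −0.17 and Colec12 −0.023, neither called. C1rl, a protease related to C1r and its direct neighbour, rose by 0.71, and C1qbp, a mitochondrial protein that can bind C1q, rose by 0.25 (edgeR BH-adjusted p = 0.000256 and 0.00439). Hc, which encodes C5, C8a and C9 held at most 1 count in any library.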

How the data were processed

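Bulk RNA-seq data of condylar cartilage were used, 7 libraries from young and 6 from aged mice, grouped by the age in their titles. The deposited values, per the file headers, are read counts per gene and library in a single table, which are expected counts as the authors made them, since 5.30% were not whole. FPKM and TPM columns, deposited beside them, were normalised by the authors for gene length and depth. The submitters' processing notes name RSEM 1.3.1, HISAT2 2.1.0, DESeq2 1.4.5 and Bowtie2 2.3.4.3 and the build GRCm39, without roles. The annotation was not given in the sources used here.

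Expected counts were rounded and tested with edgeR 4.0.16 in R 4.3.3: filterByExpr (minimum count 10, minimum total count 15), TMM scaling, and the robust quasi-likelihood test over all 13 libraries with Benjamini-Hochberg adjustment over 14067 genes. Levels are TMM-normalised CPM. Levels between genes were compared in FPKM. Marker scores are mean log2 CPM with a prior count of 2. Relations used exact two-sided permutation tests in SciPy 1.17.1. No 2 libraries agreed within sampling noise (smallest chi-square per degree of freedom 10.1).

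The members and lists were chosen with earlier results of these data known. By rule the text names every tested member, the called genes of the further complement list, and the 3 first-listed genes of each marker list (chondrocyte, erythroid, neutrophil, skeletal muscle, mast cell, macrophage, adipocyte, endothelial, B cell, fibroblast and hepatocyte); some genes the rule takes are not reported here. Alternatives were other filters, library sizes alone, RLE factors, DESeq2 1.42.0, limma 3.58.1 on voom weights, log2(FPKM + 1), log2(FPKM + 0.1) and log2(TPM + 0.1), a replicate block, covariates made from marker scores, and leaving out each library. The test was run on simulated counts for 14067 genes and recovered 72% of genes changed 1.5-fold, 96% of genes changed 2-fold, 98% of genes changed 4-fold, 100% of genes changed 8-fold, with 5.18% of calls false. The simulation changed 50 genes per fold, none of them among the lowest levels, with the same dispersion at both ages. In the data 46.2% of genes were called, so these rates may not carry over.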

Additional observations from a re-analysis of the deposited data

Results flagged for a closer look

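Of 58 groups of libraries examined (29 genes at each age), 7 held a library whose distance from its nearest neighbour took up an unusually large share of the whole range. Chance alone marks about 1 group in 20 where levels are normally distributed and groups independent. The levels were CPM without a log, and genes share their libraries, so that rate may not hold here. Aged replicate 6 accounted for 5 of the 7. It held the highest level of Masp1 at 53.5 CPM (next 14.7), of C4b at 72.5 CPM (next 32.0), of Vsig4 at 9.96 CPM (next 1.87), of Serping1 at 153 CPM (next 102) and of C2 at 6.64 CPM (next 3.91). Without this library the log2 fold changes were 0.96 for Masp1, 0.90 for C4b, 1.17 for Vsig4, 0.22 for Serping1 and −0.19 for C2, and of these only Vsig4 lost its call.

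Young replicate 1 held the highest young level of C4b at 24.8 CPM (next 15.9), and young replicate 5 the lowest young level of Serping1 at 65.7 CPM (next 73.6). Both stayed on their side of the aged libraries.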

How the results depend on the processing

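Over all genes 3471 were higher and 3033 lower. The counts were 7034 and 1253 with library sizes alone, 6227 and 1369 on log2(FPKM + 1), 6230 and 1370 on log2(FPKM + 0.1), 1629 and 1417 with the erythroid and neutrophil score, and 2097 and 1828 with the skeletal muscle score. Library sizes alone put the median of all genes at 0.24, log2(FPKM + 1) at 0.17 and log2(FPKM + 0.1) at 0.21. Of the complement genes 18 were higher and 2 lower, against 10 higher with the macrophage score, 5 higher with the erythroid and neutrophil score and 1 lower with the skeletal muscle score; every other setting gave 16 to 21 higher and 2 lower. Of the further complement genes 2 were higher and 6 lower, against 5 higher with no filter, 4 with library sizes alone and 1 with the skeletal muscle score. With the erythroid and neutrophil score edgeR called 0 of them higher (1 at an unadjusted p under 0.05) and 3 lower; no other tool was run with that score. Leaving out each library in turn gave 3149 to 3413 higher and 2739 to 3100 lower over all genes, 17 to 19 and 2 to 3 of the complement genes, and 2 and 5 to 7 of the further ones.

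The replicate numbers are not said to pair libraries, and deviations of same-numbered libraries correlated at −0.12 to 0.26 over 6 pairs, with 2 of 6 young libraries closest to their own number. With the replicate block 17 complement genes were higher and 2 lower, Vsig4 losing its call. With the block C2 and Cfd changed sign, to −0.0055 and 0.22.

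Other log2 fold changes that changed sign, the cause of which was not tested, were as follows. With the erythroid and neutrophil score they were C1qa −0.68, C1qb −0.29, C1qc −0.13, Fcna −0.45, C2 −0.26, Cfp −0.083, C3ar1 −0.41, C5ar1 −0.78, Itgam −0.38, Itgb2 −0.40, Cr1l −0.061. With the macrophage score they were C1qa −0.34, C1qb −0.033, C1qc −0.054, C2 −0.30, C3ar1 −0.27, Susd4 0.046. With the skeletal muscle score they were Cfd 0.43, Cd55 0.14, Susd4 0.46. Without aged replicate 6 they were C1qa −0.082, C2 −0.19, C3ar1 −0.079, the highest values with another library left out being 0.22, 0.15 and 0.20. On limma-voom they were C2 −0.013, Cfd 0.27. Cfd was also 0.29 on log2(FPKM + 0.1) and 0.24 on log2(TPM + 0.1), and Susd4 0.055 with library sizes alone. C6 and Clu kept their direction and call under all 13 other settings and with each library left out, and C7 under the 12 in which it was tested. Low counts limit C7, Vsig4, Cfb, Cfd and Susd4, and the stricter filter (minimum count 50) left C7, Vsig4, Cfd and Susd4 untested.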
